A study of Mus musculus with 4 samples.

Results

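The small intestine takes up dietary fat and packs it into chylomicrons for export. The genes of this route described here are Apoa1, Apoa4, Apob, Apoc3, Mttp, Dgat1, Dgat2, Fabp1, Fabp2 and Cd36. They were taken by gene name from the spots other than controls, which gave 10 genes of 30106 named on the array, read by 12 probes of 39429. Apob and Apoc3 had 2 probes each and the other genes 1, and the Apoa1 probe was spotted 10 times. Wild type mice of strain C57/BL6 gave the total RNA, which was measured on 1-colour Agilent arrays, and the study's title concerns acetylcholine made outside neurons and Lgr5-positive stem cells. The 4 groups, with 1 array each, were whole intestine, crypt, and the organoids called y-organoid and o-organoid, this last pair being labelled as crypt-villus organoid. Labelling started from 40 ng of RNA for o-organoid and 20 ng for each of the others. Wherever o-organoid is compared, RNA input and group therefore cannot be told apart. The age of the mice, the number of animals behind each RNA, the gut segment, the culture medium and the meaning of y and o are not given in the sources used here.

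Fat digested in the gut lumen enters enterocytes, the absorptive cells of the villus, as fatty acids and monoglycerides. Cd36 is a fatty acid receptor of the cell surface, and Fabp1 and Fabp2 are small cytosolic proteins that bind fatty acids. Dgat1 and Dgat2 are unrelated enzymes that catalyse the last step of triglyceride synthesis. Mttp loads lipid onto apolipoprotein B, the product of Apob and the structural protein of the chylomicron, the particle that carries fat into lymph. Apoa1, Apoa4 and Apoc3 encode further apolipoproteins of the particle. These transcripts are typical of villus enterocytes and much less so of the dividing cells at the crypt base. Fabp1, Apob, Mttp and several other members are also strongly expressed in liver.

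The probes are DNA oligonucleotides of 60 bases printed on the glass. The probes of Apoa1 and Apoa4 are shown because these 2 genes had the widest differences between the organoid and crypt arrays, and those of Apob because its 2 probes disagreed. Coordinates are on build mm9, as the files give them. The Apoa1 probe lies at chr9:46037921-46037980 and the Apoa4 probe at chr9:46049661-46050404, a stretch of 744 bases. Apoc3 lies between them, on the opposite strand, with probes at chr9:46041134-46041193 and chr9:46043606-46043665. The 4 probes of these 3 genes therefore fall within 12.5 kb of chromosome 9. The first Apob probe lies at chr12:8012697-8012756 and the second at chr12:8023194-8023253, both on the plus strand, so the second is the one nearer the 3′ end of the gene.
Apoa1: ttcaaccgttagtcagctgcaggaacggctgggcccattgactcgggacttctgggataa
Apoa4: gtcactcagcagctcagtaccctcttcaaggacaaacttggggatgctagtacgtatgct
Apob, first probe: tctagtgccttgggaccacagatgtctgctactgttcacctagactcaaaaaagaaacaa
Apob, second probe: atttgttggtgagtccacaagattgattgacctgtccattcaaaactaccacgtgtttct
The other members were read at chr3:137753868-137753927 (Mttp), chr15:76333128-76333274 (Dgat1), chr7:106302215-106302274 (Dgat2), chr6:71154906-71154965 (Fabp1), chr3:122602276-122602335 (Fabp2) and chr5:17288600-17288659 (Cd36). The files name a transcript for each probe, and whether a probe lies in coding sequence or in a UTR was not worked out here.

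Signals below are log2 intensities from which the array's own 75th percentile was subtracted, an intensity between 281 (y-organoid) and 641 (o-organoid). Between 51.9% and 58.7% of spots on an array were well above background by the scanner software's own flag. No spot was saturated. Repeated spots of a probe had a median SD of 0.05 to 0.08 on an array, so the technical SD of an array difference came to 0.08 to 0.10. With 1 array per group there are no replicates, so differences describe arrays and have no test, and the number of arrays limits the precision. Levels of different genes are not set against each other, since probes differ in brightness. The labels held up against marker genes in part. The 5 stem cell markers had a median signal of 2.40 on the crypt array against 0.95 on the intestine array, and all 5 smooth muscle markers were below background on the crypt array. The 16 brush border genes of enterocytes, however, were all above background on the crypt array at a median of 5.10, close to the 5.39 of whole intestine. The crypt RNA thus carried enterocyte transcripts beside those of the crypt base. In RNA from many cells, fewer cells of a type and less RNA per cell cannot be told apart.

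**Figure D1:**
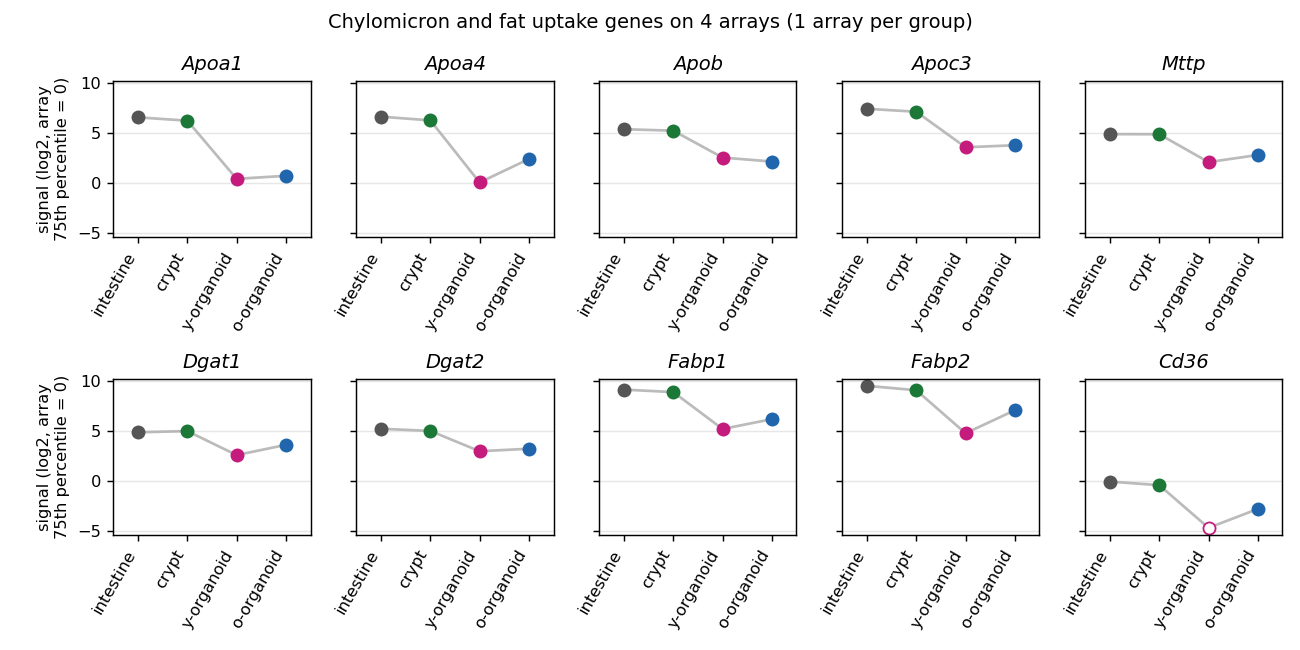
Signal of each gene (log2 intensity, with the 75th percentile of the array at 0) on the 4 arrays, 1 point per array, with the open point marking a probe not well above background. Every gene is close between intestine and crypt and lower on both organoid arrays, and the y-organoid point is the lowest for every gene but Apob.

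Between crypt and whole intestine the 10 genes hardly differed. All 10 were well above background on both arrays and 0 differed by 2-fold. Of all genes above background on 1 or both arrays 21.1% did so, 6.84% being higher and 14.2% lower on crypt. Of the 15198 genes above background on both arrays, as the members were, 1121 were higher and 1156 lower. The differences ran from -0.44 for Fabp2 to 0.12 for Dgat1. The median over the members was -0.27, beside 0.07 over 18199 genes. Their sign rests on the scaling, since with the values deposited by the authors the median was 0.47, where that of all genes was 0.80. Of 6 villus tip genes 3 lay 2-fold or more below intestine on the crypt array and 0 above (median -0.76). Ada, which encodes adenosine deaminase, was 4.16-fold lower, the nucleoside transporter gene Slc28a2 3.15-fold and Klf4 2.08-fold, while Egfr had a difference of 0.65. Markers of adipocytes, pancreatic acini, smooth muscle, macrophages and endothelium were higher on the intestine array. Hepatocyte markers were not uniformly so. Of 7 of them 3 were measured, with 1 lower on crypt by 2-fold and a median difference of 0.18. Alb, Ahsg, Apoh and Fgb were below background on both arrays. Of 8 adipocyte markers 7 were above background on the intestine array and 1, Cidec, on the crypt array, and their summed level, in multiples of the 75th percentile, was 36.2 and 4.44. The widest gap was in pancreatic acinar genes, whose 6 signals summed to 5110 on the intestine and 51.9 on the crypt array. Smooth muscle markers summed to 56.3 and 0.10. Macrophage markers summed to 22.2 and 1.32, with 4 of 6 above background on crypt, and endothelial markers to 8.47 and 4.65, with 4 of 8 above background there. Kdr was the brightest of these endothelial markers on both arrays. Its crypt minus intestine difference was -0.68 by the probe read and -4.28 by its other probe. The part of these tissues in the members' differences was not tested. Xist was above background on the intestine array only and the Y-linked gene Ddx3y on the other 3, so the sex of the mice and the tissue cannot be told apart in this comparison.

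Apoa1, the main protein of high-density lipoprotein and a component of nascent chylomicrons, was the most precisely measured member. Its 10 spots had a mean intensity of 36435 ± 999 (SD of spots) on the intestine array, 35172 ± 1090 on the crypt array, 378 ± 10.4 on the y-organoid array and 1062 ± 28.0 on the o-organoid array. The lowest crypt spot, at 33951, was far above the highest o-organoid spot, at 1114. After scaling, the signals were 6.56, 6.23, 0.43 and 0.73. Apoa1 was thus 55.8-fold lower on the y-organoid than on the crypt array and 45.3-fold lower on the o-organoid array. The organoid arrays differed from each other by 0.30 (o-organoid minus y-organoid), and by 0.25 to 0.94 under the alternative settings. The SD of spots holds no spread between samples or labellings.

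Apoa4, an apolipoprotein that the intestine secretes on feeding with fat, differed between the organoid arrays, whose RNA input also differed. Its signal was 6.63 on the intestine array, 6.26 on the crypt array, 2.40 on o-organoid and 0.06 on y-organoid. These come from intensities of 38175, 35929, 3393 and 294. Apoa4 was 73.2-fold lower on the y-organoid array than on the crypt array, the widest difference among the members, and 14.5-fold lower on the o-organoid array. It was 5.06-fold higher on the o-organoid than on the y-organoid array.

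Apoc3, which encodes an inhibitor of lipoprotein lipase and of the clearance of triglyceride-rich particles, had signals of 7.42 on the intestine, 7.12 on the crypt, 3.57 on the y-organoid and 3.78 on the o-organoid array. It was 11.7-fold and 10.2-fold lower on the y- and o-organoid arrays than on crypt. Its other probe, named for an Ensembl transcript, was dimmer on every array and showed smaller differences, -1.59 and -1.49. Both probes placed the organoid arrays within 0.21 of each other. Apoa1, Apoc3 and Apoa4 are neighbours on chromosome 9, yet their differences between the organoid arrays were 0.30, 0.20 and 2.34.

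Apob had signals of 5.38 on the intestine, 5.23 on the crypt, 2.55 on the y-organoid and 2.15 on the o-organoid array by its first probe, the brighter one by which the gene was read. By its second probe, nearer the 3′ end, they were 4.15, 4.13, -0.90 and 0.78. Both probes were lower on both organoid arrays, but by different amounts on y-organoid. There the difference from crypt was -2.68 by the first probe and -5.03 by the second, that is 6.42-fold against 32.6-fold. On o-organoid the probes gave -3.08 and -3.35. The order of the organoid arrays therefore depended on the probe, with o-organoid minus y-organoid at -0.40 by the first and 1.68 by the second. Apobec1, which encodes the enzyme that edits Apob mRNA to give the short apolipoprotein B-48 of the intestine, was looked up after these values were seen. Its signal was 3.28 on the intestine, 2.41 on the crypt, -0.15 on the y-organoid and 0.47 on the o-organoid array, and its part in the probes' disagreement was not tested.

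**Figure D2:**
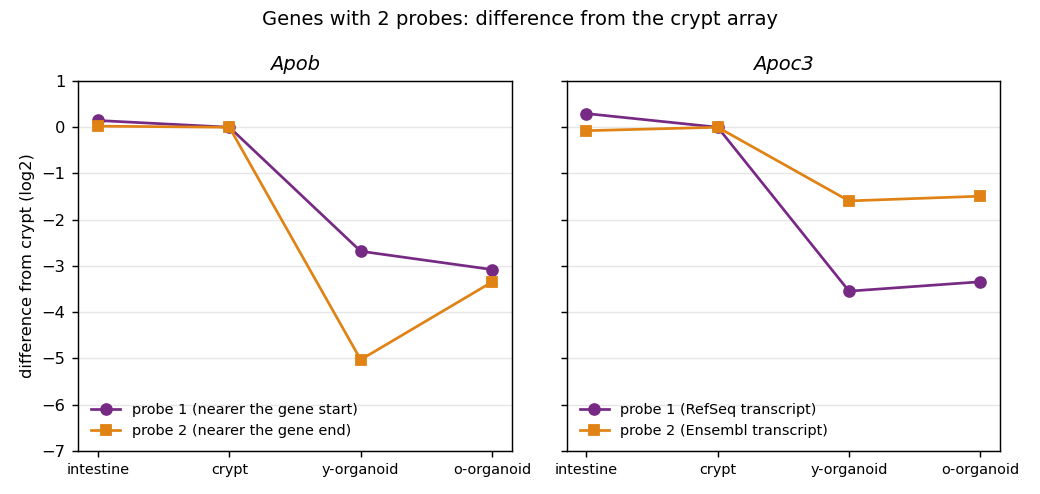
Difference of each array from the crypt array (log2) for the 2 probes of Apob (left) and of Apoc3 (right). The Apob probes part on the y-organoid array, at -2.68 and -5.03, and the Apoc3 probes part on both organoid arrays, with -3.55 and -3.34 against -1.59 and -1.49.

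Mttp encodes the transfer protein without which apolipoprotein B particles are not made. In the scaling used here it was the member least different between crypt and intestine, with signals of 4.87 and 4.88. Under the alternative settings that difference ran from -0.21 to 0.73, so the rank rests on the scaling. Mttp had 2.09 on the y-organoid array, 6.88-fold below crypt, and 2.81 on the o-organoid array, 4.20-fold below crypt. Both organoid arrays were lower than both tissue arrays.

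The 2 acyltransferases followed the same order of tissue above organoid. Dgat1 had signals of 4.84 on the intestine, 4.96 on the crypt, 2.57 on the y-organoid and 3.59 on the o-organoid array, and was 5.26-fold and 2.59-fold lower on y- and o-organoid than on crypt. In the scaling used here it was the only member higher on the crypt than on the intestine array, by 0.12. That difference ran from -0.08 to 0.86 under the alternative settings. Dgat2 had signals of 5.19, 4.98, 2.95 and 3.20 on the arrays in that order, 4.08-fold and 3.43-fold lower than crypt. Between the organoid arrays Dgat1 differed by 1.02 and Dgat2 by 0.25.

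The fatty acid binding protein genes differed from each other on the organoid arrays. Fabp1, the form shared with liver, had signals of 9.10 on the intestine, 8.85 on the crypt, 5.17 on the y-organoid and 6.15 on the o-organoid array. Fabp2, the intestinal form, had 9.48, 9.04, 4.75 and 7.04. Fabp1 was 12.8-fold and 6.50-fold lower than crypt on y- and o-organoid, and Fabp2 was 19.6-fold lower on y-organoid, with a smaller gap on o-organoid, 7.04 against 9.04. Fabp2 was 4.90-fold higher on the o-organoid than on the y-organoid array, and Fabp1 1.97-fold, just under the threshold of 2-fold. The Fabp2 intensity was 246287 on crypt, 84249 on o-organoid and 7539 on y-organoid.

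Cd36 was the dimmest member. It had signals of -0.08 on the intestine and -0.43 on the crypt array and of -2.81 on o-organoid, and on y-organoid it was not well above background. It was 5.20-fold lower on o-organoid than on crypt and at least 16.4-fold lower on y-organoid. The bound sets the bright side against the lowest signal found among probes well above background on the dim array. Against y-organoid, o-organoid was at least 3.15-fold higher, but with normexp background correction the difference was 0.07, and that of y-organoid from crypt -1.90 in place of a bound of -4.03. Cd36 is also made by adipocytes, endothelium and macrophages. On the crypt array, where Cd36 was 1.28-fold lower than on the intestine array, 1 of 8 adipocyte markers (Cidec, at 2.11), 4 of 8 endothelial markers (among them Kdr, at 2.11) and 4 of 6 macrophage markers (among them Csf1r, at -0.79) were above background, and Adipoq, Cdh5 and Mrc1 were not. The summed level of macrophage markers was 1.32 on crypt, 1.33 on y-organoid and 1.19 on o-organoid. That of endothelial markers was 4.65, 8.20 and 2.47. Kdr had 2.94 on y-organoid and 1.11 on o-organoid, and Csf1r -0.05 and -0.30. By its other probe Kdr had a crypt minus intestine difference of -4.28. The part of these cell types in the Cd36 signal was not tested.

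Across the members, 10 of 10 had a y-organoid signal at least 2-fold below crypt, as had 13.6% of all genes, and 0 were higher, as were 18.4% (either way 32.0%). On the o-organoid array 10 of 10 were lower as well, beside 13.6% of all genes, and 0 were higher, beside 8.50% (either way 22.1%). The median difference was -3.61 for y-organoid and -2.54 for o-organoid, beside 0.15 and 0.00 over all genes. These comparisons share the crypt array, so they are not independent of each other. Under the alternative settings every member measured was past 2-fold lower in both; with genes above background on both arrays, Cd36 was not measured for y-organoid. Between the organoid arrays 4 of 10 were at least 2-fold higher on o-organoid (Apoa4, Fabp2, Cd36 and Dgat1), beside 8.30% of all genes, and 0 were lower, beside 19.3% (either way 27.6%). The median there was 0.85, beside -0.15 over all genes. With the deposited values both moved up, to 1.48 for the members and 0.45 over all genes, and 80.0% of the genes past 2-fold were then higher on o-organoid, against 30.1% here. In the scaling used here the order of the arrays was intestine, crypt, o-organoid and y-organoid for 8 members. Dgat1 differed from it only in the order of crypt and intestine, and Apob in that of the organoids. The sign of crypt minus intestine changed in at least 1 alternative setting for all 10 members.

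**Figure D3:**
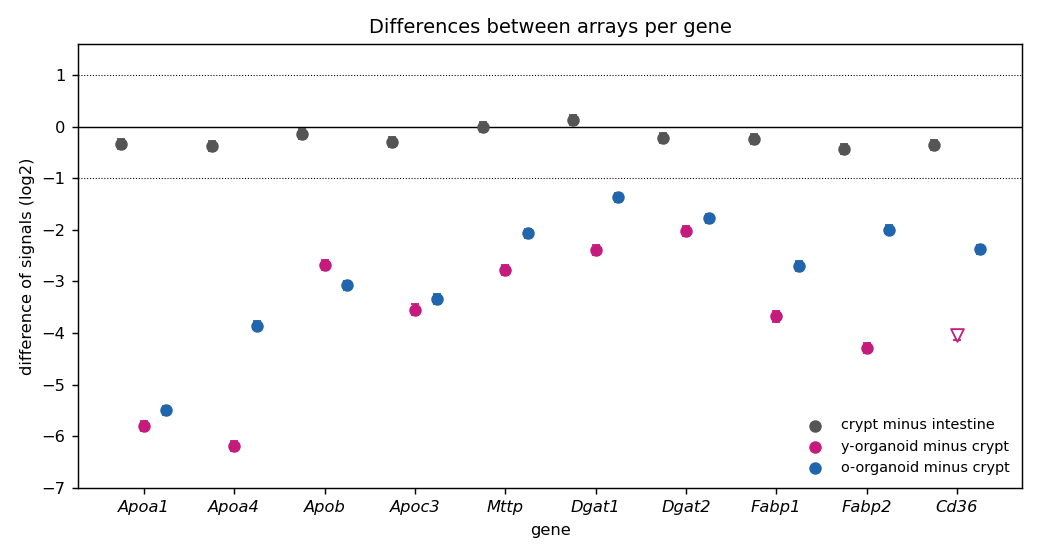
Difference between arrays (log2) per gene, with error bars of the technical SD from repeated spots, the open triangle marking a bound and dotted lines marking 2-fold. Points for crypt minus intestine lie between -0.44 and 0.12, and those for the organoid arrays between -6.19 and -1.37.

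Other genes of the route were less uniformly low. In the list of 20 fat uptake and lipid droplet genes 19 were measured, of which 10 lay 2-fold or more below crypt on y-organoid and 2 above (median -1.14), and 12 lower and 3 higher on o-organoid (median -1.32). The shares of all genes were 13.6% lower and 18.4% higher on y-organoid, and 13.6% and 8.50% on o-organoid. Mogat2, the acyltransferase that starts triglyceride synthesis from monoglyceride, was 5.80-fold and 5.70-fold lower on y- and o-organoid. Agpat2, an acyltransferase of the glycerol phosphate route, was 6.38-fold and 4.38-fold lower. Npc1l1, the cholesterol uptake transporter, was 5.65-fold and 4.91-fold lower, and the fatty acid transport gene Slc27a4 3.93-fold and 8.19-fold. Cideb, of the lipid droplet and lipoprotein pathway, was 6.69-fold and 2.55-fold lower.

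Genes higher on the organoid arrays stood apart from these. Scarb1, a receptor for high-density lipoprotein, was 5.02-fold higher on y-organoid and 4.31-fold on o-organoid than on crypt, and its other probe had log2 differences of 1.27 and 2.66. The Scarb1 signals were 0.54 on intestine, -1.47 on crypt, 0.85 on y-organoid and 0.63 on o-organoid, so the crypt array was the low one. Gpam, which starts triglyceride synthesis from glycerol phosphate, was not above background on the crypt array and was at least 4.88-fold and 4.49-fold higher. Its other probe had log2 differences of 1.18 and 1.84. Lpin1 was 2.85-fold higher on o-organoid and within 2-fold of crypt on y-organoid. It was dim, with signals of -3.24 on crypt and -1.73 on o-organoid. With normexp background correction 1 gene of the fat uptake and lipid droplet list, in place of 3, was higher on o-organoid. Dbi, an acyl-CoA binding protein gene, had signals of 7.48, 7.58, 7.13 and 7.42 on the intestine, crypt, y-organoid and o-organoid arrays.

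In the list of 20 lipoprotein assembly and secretion genes, 12 lay 2-fold or more below crypt on y-organoid and 0 above (median -1.30). On o-organoid 7 were lower and 0 higher (median -0.81). Among all genes 13.6% were lower and 18.4% higher on y-organoid, and 13.6% and 8.50% on o-organoid. Apoc2, which encodes the activator of lipoprotein lipase, had signals of 8.78 on the intestine, 7.70 on the crypt, 3.33 on the y-organoid and 4.38 on the o-organoid array, and was 20.7-fold and 9.99-fold lower than crypt. Pla2g12b was 5.84-fold and 4.34-fold lower and Tm6sf2 4.92-fold and 2.74-fold, both genes that act in the lipidation of secreted particles. Sec24d, of the coat for export from the endoplasmic reticulum, was 13.2-fold lower on y-organoid and 3.35-fold lower on o-organoid. The coat genes Sec24c and Sar1a were within 2-fold of crypt on both, with differences of -0.46 and -0.51 on y-organoid. Sar1b, the GTPase gene mutated in chylomicron retention disease, was 4.25-fold lower on y-organoid and differed by -0.90 on o-organoid. P4hb, the partner subunit of Mttp, was 3.79-fold lower on y-organoid. Its signal was 4.67 on o-organoid, against 5.58 on crypt. Between the organoid arrays 7 of 18 measured genes of this list were at least 2-fold higher on o-organoid and 0 lower, by the probe read. Among all genes 8.30% were higher and 19.3% lower. Apoa2, Sar1a, Mia2 and Mia3 had the opposite sign by their other probe, while Lman1 kept its sign. Mia2 was past 2-fold lower on o-organoid by its other probe, at -1.23 against 0.40 by the probe read. Sec24d was 3.94-fold, Sec23b 2.31-fold and Sar1b 2.28-fold higher on o-organoid.

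Regulators of the pathway were read next. Of 21 genes, 6 lay 2-fold or more below crypt on y-organoid and 2 above, and 8 lower and 2 higher on o-organoid, with medians of -0.39 and -0.61. The shares of all genes are 13.6% lower and 18.4% higher for y-organoid, and 13.6% and 8.50% for o-organoid. Creb3l3, an endoplasmic reticulum factor that drives apolipoprotein genes, was 20.7-fold lower on y-organoid and 7.24-fold on o-organoid, with signals of 6.01, 5.58, 1.21 and 2.73 on intestine, crypt, y-organoid and o-organoid. Hnf4g was 6.20-fold and 3.61-fold lower, whereas its relative Hnf4a had signals of 5.35, 6.20, 5.81 and 5.59. Ppard was 3.02-fold and 4.02-fold lower and Nr1h3, the oxysterol receptor LXR alpha, 5.24-fold and 2.34-fold. Pparg was higher, 3.87-fold and 4.06-fold. Gata4, a factor of the proximal small intestine, had signals of 2.01, 2.27, 1.77 and 2.35. Onecut2, also of the 5-gene proximal list, had 3.90, 4.04, 4.62 and 4.14, while the other genes of that list differed more. Crypt minus intestine was -1.81 for Pdx1, -2.29 for the iron reductase gene Cybrd1 and -2.12 for the iron exporter gene Slc40a1, and Cybrd1 had 4.22 for y-organoid minus crypt. The gut segment behind each RNA cannot be told apart from its group.

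Brush border genes of enterocytes had medians near those of the members. Of 16 genes, 16 lay 2-fold or more below crypt on y-organoid (median -3.54) and 15 on o-organoid (median -2.29). Among all genes 13.6% were lower on each. Pan-epithelial genes had medians of -0.77 and -0.62 over 9 genes, among them Krt20 and Vil1, which are higher in differentiated cells, with differences of -5.09 and -2.79 on y-organoid. Villus tip genes had medians of -1.97 and -3.35 over 6 genes, and the measured distal small intestine genes -4.30 (3 genes) and -3.11 (4 genes). Stem cell markers lay the other way, with 5 of 5 at least 2-fold higher on y-organoid than on crypt (median 1.61) and 4 of 5 on o-organoid (median 1.22). Among all genes 18.4% and 8.50% were higher. The Lgr5 signal was -1.75 on intestine, -0.39 on crypt, 2.85 on y-organoid and 2.32 on o-organoid. The part of the mix of enterocytes and stem cells in the members' differences was not tested.

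**Figure D4:**
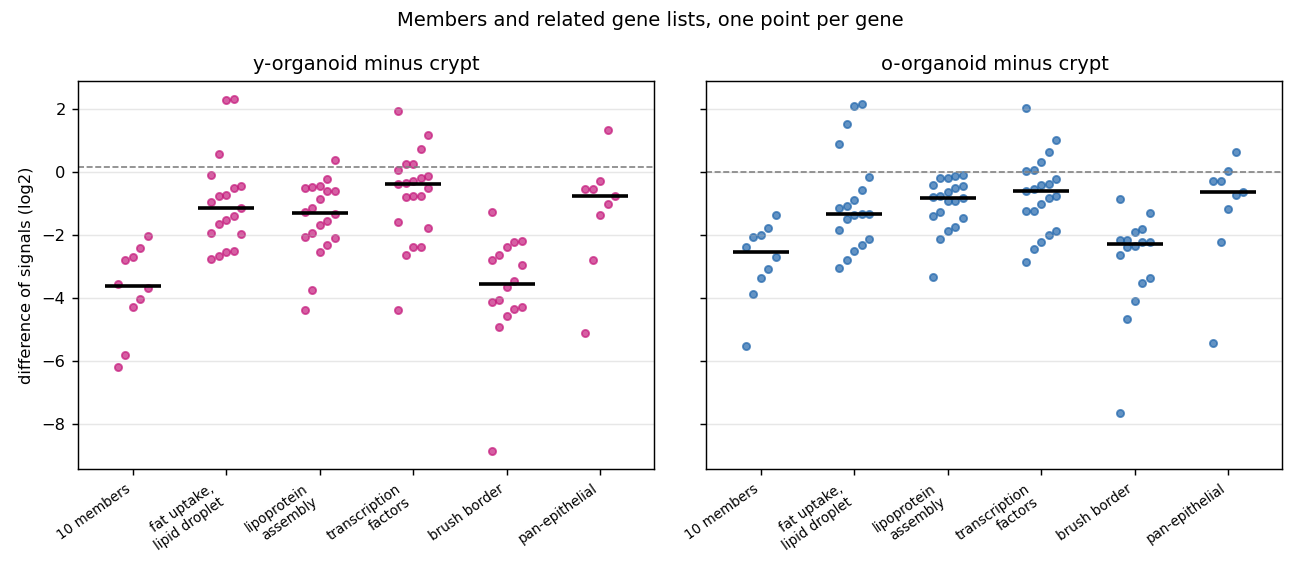
Difference from the crypt array (log2) for each measured gene of 6 lists, on y-organoid (left) and o-organoid (right), with black bars for list medians and a dashed line for the median of all genes. The members (medians -3.61 and -2.54) and the brush border genes (-3.54 and -2.29) lie below the median of all genes (0.15 and 0.00).

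Profiles over the 4 arrays, each centred on its mean, were compared with those of 11942 other annotated genes above background on every array, by Euclidean distance in log2 units. Cd36 could not be included. The gene closest to Apob was the alanine aminotransferase gene Gpt, at a distance of 0.085, and the closest to Mttp were Vil1 and the sucrase-isomaltase gene Sis, at 0.12 each. Dgat1 lay closest to Tm4sf5 (0.083), Dgat2 to the peptidase gene Dpp4 (0.11), Apoc3 to Pnp2 (0.10), and Fabp1 to Btnl1 (0.098) and the sterol transporter gene Abcg5 (0.14). Fabp2 had the peptidase gene Enpep at 0.29, Apoa1 had Krt20 at 0.56, and Apoa4 had Akr1b7 at 0.78 and Rbp2, a retinol-binding protein gene, at 0.82. Over 4 arrays of which 2 are low, such distances describe a shape and carry no test.

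Promoters are shown for 4 members because the genes were low together on the organoid arrays and these 4 windows held a motif searched for ahead of the start site. RefSeq sequences on build GRCm38.p6 were matched for 7 of 10 members, the exceptions being Apoc3, Dgat1 and Dgat2. The search covered 300 bases (250 before to 50 after the start), on both strands. The HNF4-type letters CAAAGTNCA, part of a site bound by hepatocyte nuclear factor 4, were in 2 of 7 windows (Apoa4, 182 bases before the start, and Fabp2, 137 before) and in 1.41% of 32851 promoters. TATAAA, the TATA box, was in 2 of 7 (Fabp1, 30 bases before, and Apob, 60 before) and in 13.6% of promoters. GATAAG, which zinc finger factors such as Gata4 bind, was in 2 of 7 (Apob, 154 before, and Apoa1, after the start) and in 7.44%. The direct repeat of nuclear receptors (DR1) and the palindromic HNF1-type site were in 0 of 7, and in 0.0396% and 0.00913% of promoters. The 250 bases before each start follow, 5′ to 3′ along the gene, with matches in capitals (chr9:46240594-46240843 for Apoa4, chr3:122894822-122895071 for Fabp2, chr6:71199629-71199878 for Fabp1 and chr12:7977427-7977676 for Apob, all on the plus strand).
Apoa4: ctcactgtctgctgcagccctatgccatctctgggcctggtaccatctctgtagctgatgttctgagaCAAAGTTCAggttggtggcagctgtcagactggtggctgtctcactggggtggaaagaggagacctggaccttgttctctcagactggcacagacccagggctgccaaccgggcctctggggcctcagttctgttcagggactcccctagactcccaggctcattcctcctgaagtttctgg
Fabp2: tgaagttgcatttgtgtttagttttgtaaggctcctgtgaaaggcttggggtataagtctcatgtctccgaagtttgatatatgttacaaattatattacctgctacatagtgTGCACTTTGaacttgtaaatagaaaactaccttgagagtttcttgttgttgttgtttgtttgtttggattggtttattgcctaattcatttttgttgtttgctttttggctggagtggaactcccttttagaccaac
Fabp1: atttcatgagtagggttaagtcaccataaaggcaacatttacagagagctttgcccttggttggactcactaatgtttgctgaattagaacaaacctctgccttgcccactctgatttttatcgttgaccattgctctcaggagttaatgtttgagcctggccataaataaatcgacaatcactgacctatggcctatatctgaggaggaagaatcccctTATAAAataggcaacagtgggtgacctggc
Apob: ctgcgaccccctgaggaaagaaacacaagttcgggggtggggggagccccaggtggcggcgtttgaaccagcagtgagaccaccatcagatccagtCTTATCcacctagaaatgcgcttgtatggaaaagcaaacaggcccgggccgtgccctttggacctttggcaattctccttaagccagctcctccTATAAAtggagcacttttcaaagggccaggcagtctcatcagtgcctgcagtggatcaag
A match of letters describes the sequence and is not a bound site.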

How the data were processed

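Total RNA came from an acid guanidinium extraction, and a low-input kit added Cy3, per the labels' protocols. The files deposited by the authors hold an intensity per spot, made with Agilent Feature Extraction 10.7.3.1 (background subtraction, detrending and surrogates for dim spots), per the file headers. The authors' value table holds the ratio of each processed intensity to 1 constant per array, with a median of 1.00 in each column; its scale, centring and direction are settled, and the tool that made it was not given in the sources used here.

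From each array 1377 control spots and 108 to 165 outlier spots were left out. The log2 processed intensity minus the array's 75th percentile was averaged over the spots of a probe, and the brightest probe on average stood for its gene. Probes were named from RefSeq (GRCm38.p6, names only): 27324 by accession, 3518 by symbol, 551 by synonym, and 8036 kept the file's name. A probe dim on 1 of 2 arrays has a bound there. Where the bright side did not exceed that bound, the gene was taken as not different and kept among the genes measured. Over genes above background on both arrays, the median of all genes was 0.10 for y-organoid minus crypt and -0.03 for o-organoid minus crypt. Genes at least 2-fold apart were counted among those above background on 1 or both arrays. The members and lists were chosen with earlier results of these data known. The text names all 10 members, genes of closest profile (up to 2 for each member) and, per list and comparison, up to 4 genes past 2-fold. Others, such as Lpin1, Apobec1, Dbi, Hnf4a, Gata4, Onecut2, P4hb, Sar1b, Sec23b, Sec24c, Sar1a, Egfr, Kdr, Csf1r, Xist and Ddx3y, were named after their values were seen. The differencing was tested on simulated data. Python 3.11.15, R 4.3.3 and limma 3.58.1 (normexp with offset 50) were used.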

Additional observations from a re-analysis of the deposited data

How the results depend on the processing

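Alternatives were normexp background correction, the 75th percentile over probes detected on all arrays, quantile normalization, the deposited values, the median over a gene's probes, no filter on dim probes, and genes above background on both arrays. The counts of members at least 2-fold higher or lower were within 1.5 times their value under each, 4 of 10 higher on o-organoid than on y-organoid becoming 6 with the deposited values and 3 of 9 with the filter on both arrays. The median for crypt minus intestine (-0.27) was -0.47 with the percentile over detected probes and 0.47 with the deposited values. For y-organoid minus crypt (-3.61) it was -3.19 with normexp, -3.41 with the percentile over detected probes, -4.12 with the deposited values and -3.77 with the median over probes. For o-organoid minus crypt (-2.54) it was -2.35 with normexp, -2.36 with the percentile over detected probes, -2.41 with the deposited values and -2.40 with the median over probes. For o-organoid minus y-organoid (0.85) it was 0.58 with normexp, 1.48 with the deposited values and 0.71 with genes above background on both arrays. The deposited scaling moved the median of all genes to 0.80, -0.36, 0.09 and 0.45 in these 4 comparisons. The share of higher genes among all called moved from 32.4%, 57.5%, 38.5% and 30.1% to 81.5%, 25.6%, 48.7% and 80.0% with it, to 19.4%, 70.1%, 53.3% and 28.4% with the percentile over detected probes, and to 53.9%, 49.2%, 43.5% and 47.8% with quantile normalization. Signs of single members held in both comparisons of organoids with crypt under the 5 alternatives run on single genes, changed in at least 1 of them for all 10 members between crypt and intestine, and between the organoids changed for Apob. There Cd36, Fabp1 and Mttp also changed their side of 2-fold. Of 112 pathway counts under alternatives 99 were within 1.5 times. No paired analysis was possible because each group has 1 array.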

Other observations

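The colipase gene Clps, whose product anchors pancreatic lipase to fat droplets, was less reduced outside the intestine array than the other pancreatic genes of its list. Pnlip, the lipase itself, had a signal of 9.12 on the intestine array and was not above background on the other 3. Cpa1 was above background on intestine and crypt, and Cel, Cela1 and Ctrb1 on all 4 arrays. Outside intestine the signals of these genes were -0.14 (Ctrb1 on o-organoid) or below. Clps had 9.73 on the intestine, 5.68 on the crypt, 3.42 on the y-organoid and 5.60 on the o-organoid array. It was 4.53-fold higher on o-organoid than on y-organoid, a log2 difference of 2.18, and its other probe had a wider log2 difference of 3.94.

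Apoe, which encodes the apolipoprotein of remnant particles and is abundant in macrophages, was 96.5-fold lower on the crypt than on the intestine array, with signals of -0.97 and 5.62, while the members of the chylomicron route lay within 2-fold. Its signals on the y- and o-organoid arrays were -0.61 and -1.08. Mgll, which encodes a monoglyceride lipase, was 8.56-fold lower on crypt than on intestine and 6.53-fold lower on o-organoid than on y-organoid. In log2 units these differences were -3.10 and -2.71. For the first, 2 other probes had a median of -3.50, and for the second 1 other probe had -2.60. Cidec, a lipid droplet gene of adipocytes, was the 1 adipocyte marker above background outside the intestine array, at 2.11 on the crypt, 0.06 on the y-organoid and -0.30 on the o-organoid array. Of 4 distal small intestine genes, Slc51a and Slc51b were above background on all 4 arrays, Fabp6 on intestine and crypt, and Slc10a2 on o-organoid alone. Slc51a had signals of 5.61, 5.42, 1.11 and 1.70 on intestine, crypt, y-organoid and o-organoid.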
